A study of Mus musculus with 5 samples.

Results

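The acute phase and chemokine genes are 10 transcripts of the inflammatory response, described here in sorted mouse pancreatic islet cells. They are listed by symbol as acute phase genes or genes responsive to NF-κB or STAT3, and were chosen by their log2 signals on these arrays, several of them being high on Flattop-positive replicate 3 and Flattop-negative replicate 2. Of the 10 genes, 9 were measured by a probe set annotated to a single symbol, out of 19938 genes in the table, and the complement gene C3 was not analysed here. The levels that chose the genes are given as a description and without a test.

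The cells came from untreated C57BL/6 mice aged 8 to 12 weeks that were heterozygous for a modified Flattop allele (FVR/+), a genotype carried by the donors of every pool, and were sorted by flow cytometry. There were 3 Flattop-positive arrays and 2 Flattop-negative arrays, each made from RNA of a pool of 4 to 6 mice, and the sex of the mice had not been determined. Flattop is the product of Cfap126, which stood at 6.07, 6.07 and 6.24 in the Flattop-positive pools, against 5.52 and 5.44 in the Flattop-negative pools. Values are log2 signals made by the authors with RMA, so that a difference of 1 is a 2-fold difference, and the number of arrays limits the precision. Ins2 and Gcg, the insulin and glucagon genes that define islet β cells and α cells, lay above 12 on all 5 arrays. As a floor for each array, the 95th percentile of 1027 olfactory receptor genes was taken, which was 4.29 to 4.45 in the Flattop-positive pools, against 4.75 and 4.86 in the Flattop-negative pools.

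The arrays on which these genes were high stood apart in other ways. Xist, the RNA that coats the inactive X chromosome in female cells, had 7.81 on Flattop-positive replicate 3 and 8.62 on Flattop-negative replicate 2, and lay below the floor on the other arrays, with 3.58 and 3.76 on Flattop-positive replicates 1 and 2 and 4.36 on Flattop-negative replicate 1. Of 22 immediate early and stress genes, 15 were at least 2-fold higher on Flattop-positive replicate 3 than on replicates 1 and 2 and also at least 2-fold higher on Flattop-negative replicate 2 than on replicate 1, against 0.978% of all genes. The stress factor gene Atf3 had 7.5, 5.27 and 11.51 on Flattop-positive replicates 1, 2 and 3, against 7.61 and 11.74 on Flattop-negative replicates 1 and 2. Flattop-negative replicate 1 stood apart too, since the somatostatin gene Sst had 8.08 on it, against 12.32 to 13.19 elsewhere, and across genes the Flattop-negative arrays correlated least of all pairs (r = 0.846). The part of donor sex, of cell stress or of the mix of islet cell types in the levels below was not tested.

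Acute phase genes encode plasma proteins whose synthesis changes during inflammation, classically in hepatocytes under interleukin 6 and interleukin 1. Interleukin 6 and its relatives signal through the receptor subunit gp130 and the transcription factor STAT3, while interleukin 1, tumour necrosis factor and Toll-like receptors signal through NF-κB. Both factors also induce their own brakes, among them SOCS3 and IκBα, and in islets inflammatory cytokines are known to induce chemokines and to impair β-cell function.

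Among the secreted acute phase proteins, Serpina3n and Lbp were high on the same pair of arrays. Serpina3n, a serine protease inhibitor related to human α1-antichymotrypsin, had log2 signals of 6.67, 5.98 and 10.60 on Flattop-positive replicates 1, 2 and 3, against 6.43 and 9.90 on Flattop-negative replicates 1 and 2. Each fraction held low values and a high one, so the fractions overlapped. It was 4.28 log2 units (19.4-fold) higher on Flattop-positive replicate 3 than the mean of replicates 1 and 2, and 3.46 log2 units higher on Flattop-negative replicate 2 than on replicate 1. The gene belongs to a cluster of close relatives, and signal from relatives not annotated here cannot be told apart from its own; Serpina3a and Serpina3b lay below the floor on all 5 arrays, which was looked up after the values were seen. Lbp, the lipopolysaccharide binding protein that hands endotoxin to CD14, had 4.34, 4.70 and 9.07 on the Flattop-positive arrays, against 4.66 and 8.54 on the Flattop-negative arrays. Lbp lay just above the floor on Flattop-positive replicates 1 and 2 and below it on Flattop-negative replicate 1, so its gap was 4.55 log2 units in the Flattop-positive fraction and at least 3.79, measured from the floor, in the Flattop-negative fraction.

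The fibrinogen chains did not share a pattern. Fibrinogen is a plasma clotting protein built from α, β and γ chains, whose genes Fga, Fgb and Fgg follow one another on mouse chromosome 3. Fgg had 3.49, 4.04 and 9.75 on the Flattop-positive arrays, against 3.54 and 7.28 on the Flattop-negative arrays, and lay below the floor on all 3 low arrays. Measured from the floor, Fgg was at least 42.0-fold higher on Flattop-positive replicate 3 than the mean log2 signal of replicates 1 and 2, each taken at its floor, and at least 5.79-fold higher on Flattop-negative replicate 2 than on replicate 1. Among the measured genes of the set it had the largest range over the arrays, 6.27 log2 units. Fga had 3.52, 3.91 and 5.53 on the Flattop-positive arrays, against 4.14 and 4.12 on the Flattop-negative arrays, so that only Flattop-positive replicate 3 rose above the floor. Its second probe set had 3.42, 3.58 and 5.68 on the Flattop-positive arrays, against 3.97 and 4.36 on the Flattop-negative arrays. Fgb had 4.50, 5.83 and 5.29 on the Flattop-positive arrays, against 5.64 and 5.14 on the Flattop-negative arrays, with its highest value on Flattop-positive replicate 2. A transcript of all 3 chains above the floor was thus present on Flattop-positive replicate 3 alone of the 5 arrays.

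Lcn2, the iron-siderophore binding protein lipocalin 2, had 3.77, 3.80 and 3.79 on the Flattop-positive arrays, against 4.23 and 4.39 on the Flattop-negative arrays. It lay below the floor on all 5 arrays and did not follow Serpina3n or Lbp. Its fractions did not overlap, but values below the floor have no reliable order.

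**Figure D1:**
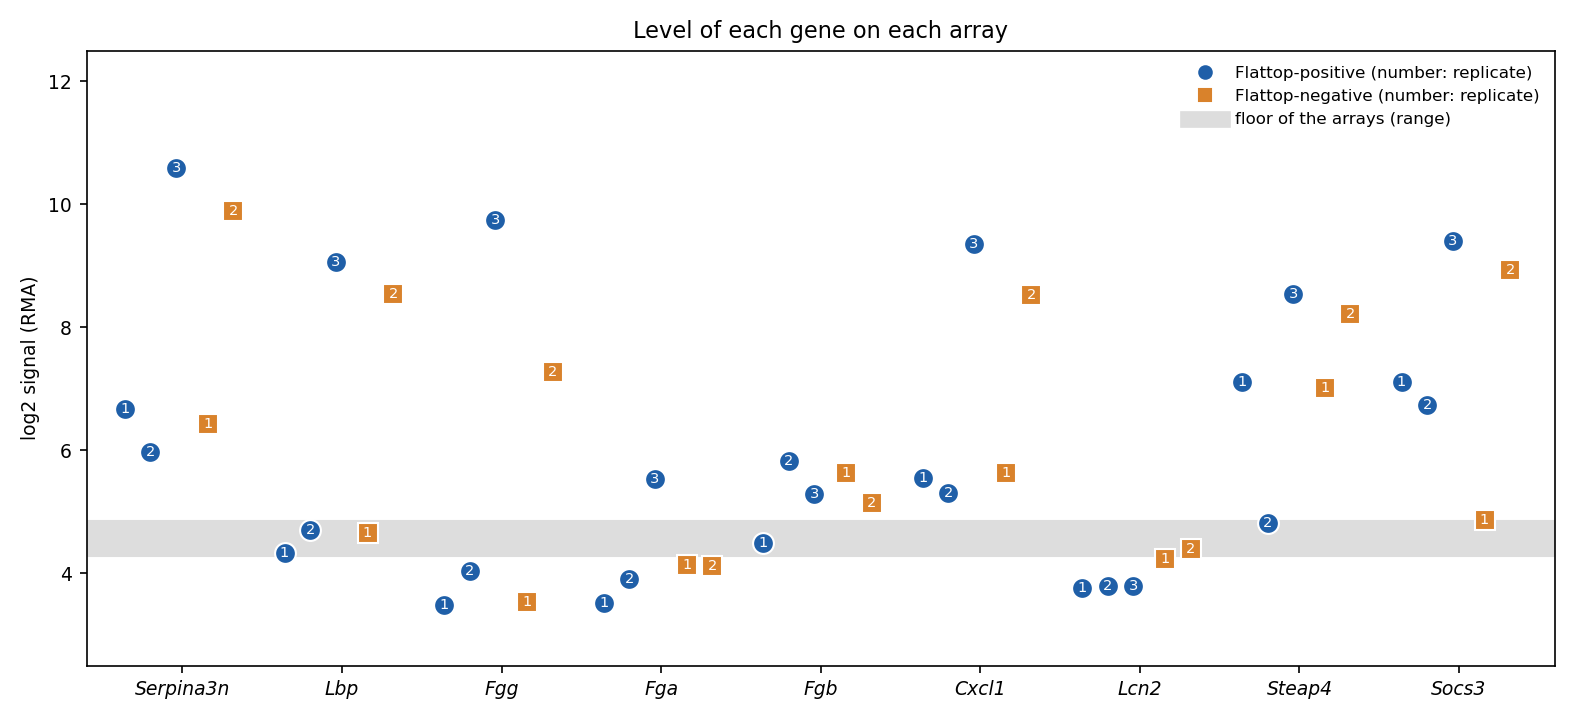
Log2 signal of the 9 measured genes on each array, with circles for Flattop-positive and squares for Flattop-negative pools and the replicate number inside each symbol; the grey band spans the floors of the arrays, 4.29 to 4.86. Flattop-positive replicate 3 and Flattop-negative replicate 2 lie highest for Serpina3n, Lbp, Fgg, Cxcl1, Steap4 and Socs3, while Fgb and Lcn2 do not show this order.

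Cxcl1, a chemokine that attracts neutrophils through CXCR2, had 5.55, 5.31 and 9.36 on the Flattop-positive arrays, against 5.64 and 8.53 on the Flattop-negative arrays. It was 15.2-fold higher on Flattop-positive replicate 3 than the mean of replicates 1 and 2, and 7.39-fold higher on Flattop-negative replicate 2 than on replicate 1. Of the set its array profile lay nearest to the median profile of the 9 genes, at a root mean square distance of 0.33 log2 units.

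Steap4, a metalloreductase of the cell surface and endosomes that tumour necrosis factor and interleukin 6 induce in fat cells, had 7.11, 4.82 and 8.54 on the Flattop-positive arrays, against 7.01 and 8.22 on the Flattop-negative arrays. Its smallest gap was the 2.31-fold one between the Flattop-negative arrays, and its lowest array was Flattop-positive replicate 2. Socs3, the feedback inhibitor of gp130 signalling, had 7.11, 6.74 and 9.40 on the Flattop-positive arrays, against 4.87 and 8.93 on the Flattop-negative arrays. Socs3 was 2.47 log2 units higher on Flattop-positive replicate 3 than the mean of replicates 1 and 2 and 4.06 higher on Flattop-negative replicate 2 than on replicate 1, so its wider gap lay in the Flattop-negative fraction. A second Socs3 probe set had 6.92, 6.58 and 9.29 on the Flattop-positive arrays, against 5.31 and 8.30 on the Flattop-negative arrays, in the same order of arrays.

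The sequences upstream of the genes are shown for the fibrinogen chains, which differed among themselves, and for Cxcl1 and Steap4, which held a match to the NF-κB consensus. RefSeq promoter windows (GRCm38.p6) were found for 8 of the 9 genes, and the 250 bases before the listed start were searched on both strands for the NF-κB consensus, for the STAT motif TTCNNNGAA and for the AP-1 motif TGANTCA. Capitals mark the matches. The window of Cxcl1 is chr5:90890995-90891244 (+), that of Steap4 chr5:7960222-7960471 (+), that of Fgg chr3:83007474-83007723 (+), that of Fga chr3:83025903-83026152 (+) and that of Fgb chr3:83049864-83050113 (-).
Cxcl1: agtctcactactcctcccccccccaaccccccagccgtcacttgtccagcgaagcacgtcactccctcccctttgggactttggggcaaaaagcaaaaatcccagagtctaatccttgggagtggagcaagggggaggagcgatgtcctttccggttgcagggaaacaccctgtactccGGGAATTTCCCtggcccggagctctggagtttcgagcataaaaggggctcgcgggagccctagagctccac
Steap4: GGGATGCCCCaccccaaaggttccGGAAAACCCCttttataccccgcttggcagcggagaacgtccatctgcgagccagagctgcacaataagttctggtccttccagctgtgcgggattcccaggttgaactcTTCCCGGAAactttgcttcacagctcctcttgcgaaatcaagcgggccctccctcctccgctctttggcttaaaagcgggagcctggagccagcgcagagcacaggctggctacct
Fgg: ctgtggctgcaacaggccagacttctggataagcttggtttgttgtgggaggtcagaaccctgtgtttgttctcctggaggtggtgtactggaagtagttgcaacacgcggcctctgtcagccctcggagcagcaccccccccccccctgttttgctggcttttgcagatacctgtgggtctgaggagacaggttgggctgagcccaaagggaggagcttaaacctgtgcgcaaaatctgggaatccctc
Fga: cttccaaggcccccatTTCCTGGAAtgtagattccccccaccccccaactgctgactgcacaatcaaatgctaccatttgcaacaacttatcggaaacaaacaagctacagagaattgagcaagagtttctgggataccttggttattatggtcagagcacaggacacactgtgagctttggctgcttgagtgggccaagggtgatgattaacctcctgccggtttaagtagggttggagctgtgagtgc
Fgb: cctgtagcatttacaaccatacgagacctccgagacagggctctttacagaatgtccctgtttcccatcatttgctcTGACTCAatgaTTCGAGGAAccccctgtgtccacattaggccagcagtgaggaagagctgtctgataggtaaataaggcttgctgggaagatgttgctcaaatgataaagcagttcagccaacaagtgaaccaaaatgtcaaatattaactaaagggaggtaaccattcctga

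In the Cxcl1 window the capitals mark a single run in which the NF-κB consensus matched on both strands in overlapping positions, starting 71 bases before the listed start. The Steap4 window held a pair of NF-κB matches near its far end and a STAT match 116 bases before the start. Fga had a STAT match 234 bases before the start, and Fgb had a STAT match at 162 bases and an AP-1 match at 173 bases. The windows of Fgg, Lcn2 and Serpina3n held no match to these letters. The Socs3 window held a STAT match, but the windows of Socs3 and Serpina3n overlap the RefSeq span of the gene itself and are not printed. In all, 2 of the 8 windows held the NF-κB consensus, 4 the STAT motif and 1 the AP-1 motif, against 3.9%, 7.02% and 6.75% of 32851 RefSeq windows of this length. A match is a description of the letters and not a binding site.

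Between arrays of the same fraction, 6 of the 9 genes (Serpina3n, Lbp, Fgg, Cxcl1, Steap4 and Socs3) were at least 2-fold higher on Flattop-positive replicate 3 than on each of replicates 1 and 2 and on Flattop-negative replicate 2 than on replicate 1. Over all genes 0.978% met this rule, and 0.487% met it in the opposite direction. This contrast chose the genes, so nothing is read from the difference between these shares. Just inside the 2-fold rule lay Steap4, whose smaller gap was 1.21 log2 units between the Flattop-negative arrays, and the nearest gene outside it was Fga, whose gap in the Flattop-positive fraction was at least 1.17 measured from the floor, while both Flattop-negative arrays lay below the floor. Lcn2, below the floor throughout, had 0.01 and 0.15, and Fgb had 0.13 and -0.50. The median gap of the 9 genes was 2.57 in the Flattop-positive and 2.88 in the Flattop-negative fraction, against medians of 0.00 and 0.07 over all genes. The summed linear signal of the 9 genes was 504, 366 and 4752 on Flattop-positive replicates 1, 2 and 3, against 418 and 2709 on Flattop-negative replicates 1 and 2.

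**Figure D2:**
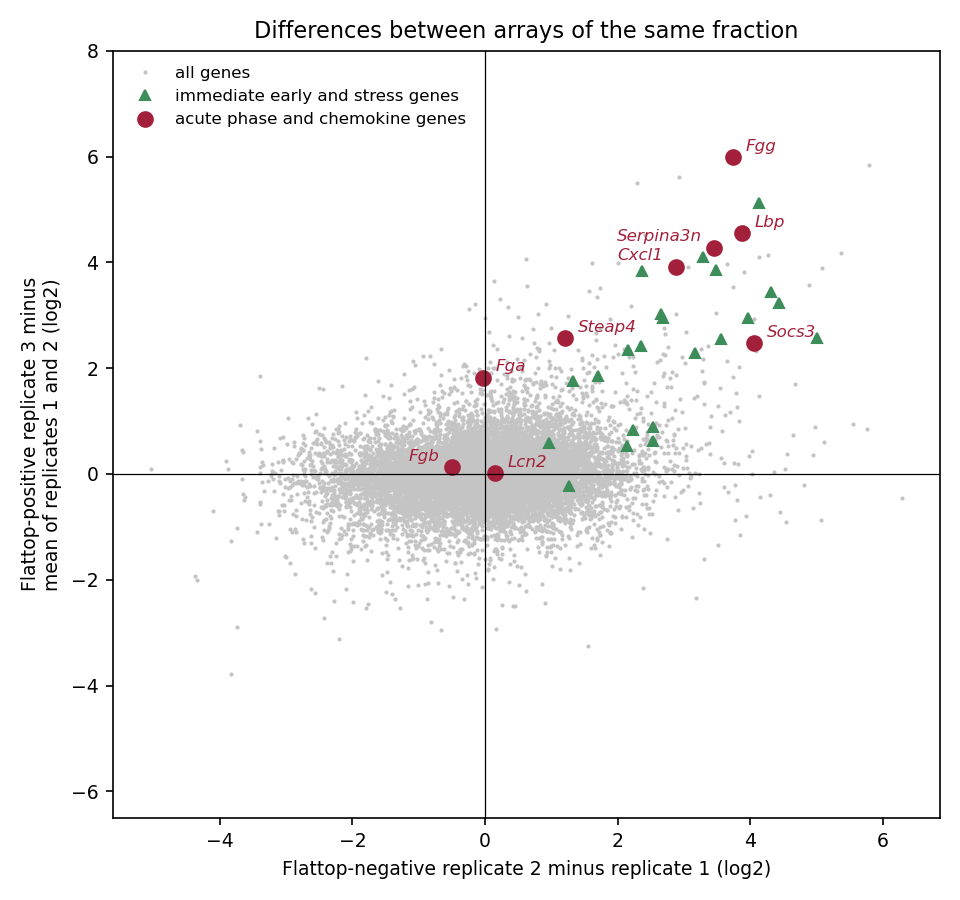
Each point is a gene, with Flattop-negative replicate 2 minus replicate 1 on the horizontal axis and Flattop-positive replicate 3 minus the mean of replicates 1 and 2 on the vertical axis, both in log2 units. Fgg, Lbp, Serpina3n, Cxcl1, Socs3 and Steap4 (red) lie at the upper right among the immediate early and stress genes (green), Fga is raised in the vertical direction only, and Fgb and Lcn2 lie within the cloud of all genes (grey).

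The genes whose array profile lay nearest to the median profile of the 9 genes were ranked by the root mean square distance over the 5 arrays, each gene centred on its own mean. Among 12892 other genes above the floor on at least 2 arrays, the nearest were the transcription factor genes Klf6 (0.18 log2 units) and Egr1 (0.19) and the adhesion molecule gene Icam1 (0.23), followed by Pxt1, Cxcl2, Bcl6, Fos, Rasd1, Errfi1 and Arrdc3 (0.24 to 0.36). Cxcl2 lay above the floor on the high arrays only, so its distance rests in part on values below the floor. The median distance over the genes ranked was 1.51. Egr1 had 7.93, 7.36 and 10.59 on the Flattop-positive arrays, against 7.86 and 10.55 on the Flattop-negative arrays. Icam1, which leukocytes bind and which NF-κB induces, had 5.41, 5.12 and 8.03, against 5.27 and 7.96. Of these 10 genes, 3 were on the immediate early and stress list, 1 on the chemokine list and 1 on the interleukin 1, TNF and NF-κB list. Of the 12892 genes ranked, these lists held 22, 16 and 34. The profile is that of genes chosen for this pattern, so genes that share the pattern lie near it by construction. Nothing is read from these counts. Only 6 of the 10 were shared after quantile normalisation was repeated and after cyclic loess.

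The design sets Flattop-positive against Flattop-negative cells, and none of the 9 genes passed the test of that difference after adjustment. Several of the genes were chosen for high levels on an array of each fraction, which widens the spread within the fractions. Failure to pass is thus in part built into the choice of genes, and nothing is read from it. A linear model in limma over all 19938 genes gave 0 of the 9 genes an adjusted p under 0.05, and 0% of all genes passed (the smallest adjusted p over all genes was 0.198). Without Flattop-negative replicate 2, 434 genes passed, and 0 of the 9 were among them. At an unadjusted p under 0.05 there was 1 of the 9 genes, Lcn2, against 13.8% of all genes. At an unadjusted p under 0.05 with at least 1.5-fold, 0 of the 9 were higher and 0 lower, against 8.08% and 3.74% of all genes. The fractions did not overlap for 1 of the 9, again Lcn2, which was lower in the Flattop-positive arrays, against 21% of all genes in that direction. The median difference of the 9 genes was -0.35 log2 units, with 3 higher and 6 lower, against a median of -0.10 over all genes. It was -0.24 after quantile normalisation was repeated and -0.25 after cyclic loess. The counts include Lcn2, below the floor on all arrays, and Fga, below it on all but Flattop-positive replicate 3. Directions of these genes are not reliable.

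Fgg averaged 5.76 ± 3.47 (SD, n = 3) in Flattop-positive pools and 5.41 ± 2.64 (SD, n = 2) in Flattop-negative pools, a difference of 0.35 ± 2.17 log2 units (SE; limma adjusted p = 0.95). Serpina3n averaged 7.75 ± 2.49 and 8.16 ± 2.45 on the same terms, a difference of -0.41 ± 1.67 (limma adjusted p = 0.920). Cxcl1 averaged 6.74 ± 2.27 and 7.09 ± 2.04 (-0.35 ± 1.48; limma adjusted p = 0.924). Socs3 had the largest positive difference, 0.85 ± 1.38 (limma adjusted p = 0.782), and Steap4 the largest negative one, -0.79 ± 1.09 (limma adjusted p = 0.740). Standard errors of the 9 genes ran from 0.18 for Lcn2 to 2.17 for Fgg, with a median of 1.38, against 0.26 over all genes. The wide errors follow in part from the choice of genes high on an array of each fraction. Errors near this median leave room for differences of several fold in either direction, so the test does not show that the fractions had the same level. That room is smaller for Fga (0.61), Fgb (0.43) and Lcn2 (0.18), though Lcn2 lay below the floor on all arrays.

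The direction of the difference turned for Serpina3n, Lbp, Fgg, Fgb, Cxcl1, Steap4 and Socs3 when 1 array or another was left out. All values of Fga but that on Flattop-positive replicate 3 and all values of Lcn2 lay below the floor and have no reliable order. For genes chosen as high on an array of each fraction, such turns follow in part from the choice. Without Flattop-positive replicate 3, Serpina3n, Lbp, Fgg and Cxcl1 had differences of -1.84, -2.08, -1.65 and -1.66; without Flattop-negative replicate 2 they had 1.32, 1.38, 2.22 and 1.09. For Fgg these values set arrays below the floor against the high array that remained, so their size is not exact. Socs3 had 0.02 and 2.88 under the same omissions. Between the high arrays alone, Flattop-positive replicate 3 exceeded Flattop-negative replicate 2 by 0.70 for Serpina3n, 0.53 for Lbp, 0.83 for Cxcl1, 0.47 for Socs3, 0.32 for Steap4 and 2.47 for Fgg. Between the low arrays, the mean of Flattop-positive replicates 1 and 2 minus Flattop-negative replicate 1 was -0.11 for Serpina3n, -0.21 for Cxcl1, -1.04 for Steap4 and 2.06 for Socs3. Fgg lay below the floor on all 3 of these arrays and Lbp on Flattop-negative replicate 1, so no difference is given for them. Each of these values rests on 1 Flattop-negative array and is given as a size only.

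**Figure D3:**
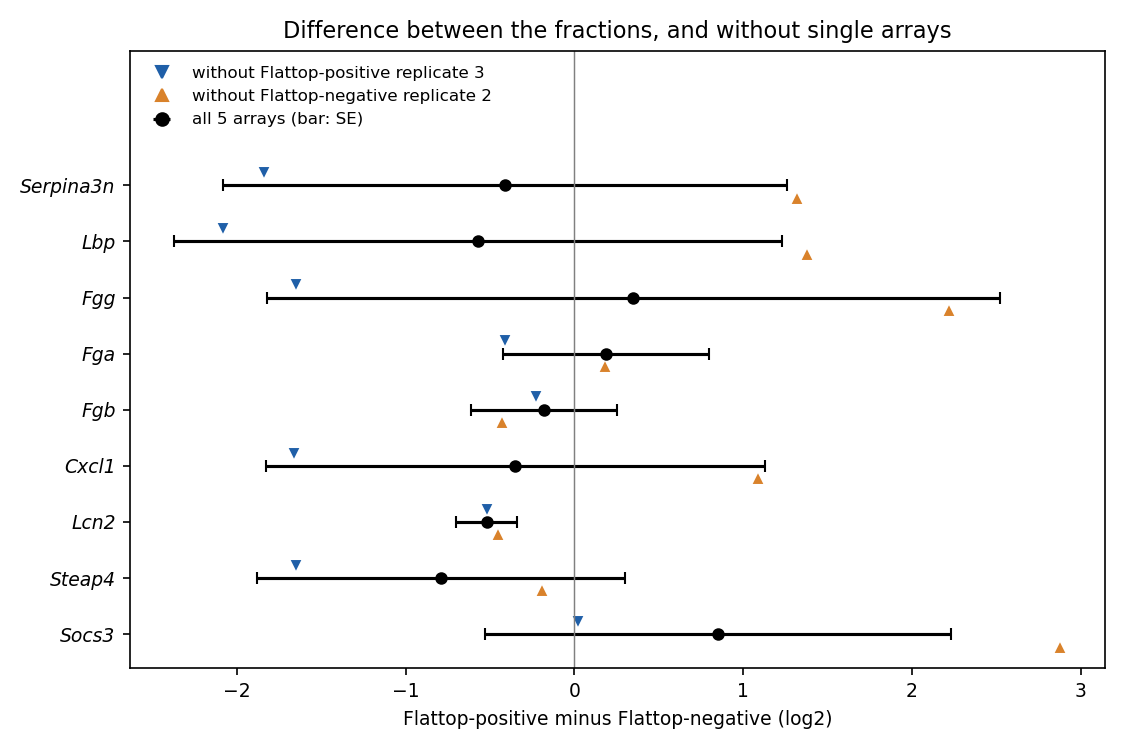
Difference between Flattop-positive and Flattop-negative arrays in log2 units for each gene, with the standard error of the limma fit to all 5 arrays (black), and the value without Flattop-positive replicate 3 (blue, pointing down) or without Flattop-negative replicate 2 (orange, pointing up). The blue and orange values lie on opposite sides of 0 for Serpina3n, Lbp, Fgg, Cxcl1 and Fga. For Fga all values but that on Flattop-positive replicate 3 lay below the floor, so its direction is not reliable.

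Of 29 other acute phase genes that were measured, 14 lay at or below the floor on all 5 arrays, among them the serum amyloid genes Saa1 and Saa3 and the haptoglobin gene Hp. Hamp, which encodes the iron regulator hepcidin and is induced through STAT3, had 5.92, 6.58 and 8.34 on the Flattop-positive arrays, against 6.92 and 9.94 on the Flattop-negative arrays, and was the only one of the 29 to meet the 2-fold rule on both arrays. The metallothionein gene Mt1 had 13.04, 12.48 and 13.13, against 11.29 and 13.01. The tissue factor gene F3 had 6.95, 5.86 and 6.84, against 6.37 and 8.05, and the protease inhibitor gene Timp1 had 4.49, 4.49 and 5.35, against 4.26 and 5.98. Between the fractions, 0 of the 29 passed an adjusted p of 0.05, and at an unadjusted p under 0.05 and 1.5-fold 0 were higher and 1 lower, which lay below the floor on all arrays. The median difference was -0.30, in part from genes at the floor, which was higher on the Flattop-negative arrays. It was -0.06 after quantile normalisation was repeated and -0.08 after cyclic loess.

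Among 26 other chemokine ligand and receptor genes, Cxcl2, Ccl2 and Ccl5 met the 2-fold rule on both arrays, Ccl5 being named after its values were seen. Cxcl2, the neighbour of Cxcl1 on mouse chromosome 5 and a ligand of the same receptor, had 3.27, 3.20 and 6.25 on the Flattop-positive arrays, against 3.52 and 6.41 on the Flattop-negative arrays, and lay above the floor on the high arrays only. Ccl2, which attracts monocytes, had 4.02, 3.95 and 5.56, against 4.38 and 5.64, and also lay above the floor on the high arrays only. Measured from the floor, its gap was at least 1.20 log2 units in the Flattop-positive fraction. In the Flattop-negative fraction it was at least 0.90, so a 2-fold gap was not secured there. The interferon-induced chemokine gene Cxcl10 ran another way, with 10.76, 11.35 and 9.06 on the Flattop-positive arrays, against 9.54 and 9.66 on the Flattop-negative arrays. Ccl28 was highest on Flattop-negative replicate 1 (8.77, against 6.46 to 7.28 elsewhere), and Ccl7 on Flattop-negative replicate 2 (6.39, against 4.07 to 4.86 elsewhere). Between the fractions, 0 of the 26 passed an adjusted p of 0.05. Ccl4 was the only one at an unadjusted p under 0.05 and 1.5-fold, with a difference of -0.96 ± 0.35 (limma adjusted p = 0.329). The median difference of the list was -0.41, and it was -0.25 after quantile normalisation was repeated and -0.20 after cyclic loess.

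In the interleukin 6 and STAT3 pathway, 3 of 32 measured genes met the 2-fold rule on both arrays, namely Junb, Myc and Cish, which encodes a STAT-induced inhibitor and was named after its values were seen. Il6 itself had 2.62, 3.04 and 6.48 on the Flattop-positive arrays, against 3.29 and 3.42 on the Flattop-negative arrays, above the floor on Flattop-positive replicate 3 alone. The oncostatin M receptor gene Osmr had 3.82, 3.39 and 5.98, against 4.37 and 5.15, above the floor on both high arrays. The interleukin 6 receptor gene Il6ra had 7.92, 8.02 and 7.20, against 6.94 and 6.91, and Il6st, which encodes gp130, had 8.42, 7.88 and 8.66, against 7.96 and 8.82. Stat3 had 9.70, 9.34 and 9.30, against 8.34 and 9.65, with its lowest value on Flattop-negative replicate 1. The C/EBP genes, whose products act on acute phase promoters, were not highest on both arrays. Cebpb had 7.10, 6.95 and 7.42 on the Flattop-positive arrays, against 7.40 and 6.89 on the Flattop-negative arrays, and Cebpd had 8.78, 7.03 and 8.76, against 8.32 and 7.59. Junb, an AP-1 subunit gene, had 7.11, 6.48 and 8.94, against 5.92 and 8.57.

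Between the fractions, 0 of these 32 genes passed an adjusted p of 0.05, and at an unadjusted p under 0.05 and 1.5-fold the Flattop-positive arrays were higher for 5 and lower for 0, against 8.08% and 3.74% of all genes. The median difference was 0.20, and it was -0.12 after quantile normalisation was repeated and -0.13 after cyclic loess. The 5 were the phosphatase gene Ptpn11 (1.01 ± 0.21, limma adjusted p = 0.218), the ciliary neurotrophic factor receptor gene Cntfr (2.13 ± 0.61, limma adjusted p = 0.275), and Pias3, Il6ra and Stat5a (0.66 to 0.99, limma adjusted p of 0.293 to 0.361). The level of Cntfr was 6.03 on Flattop-negative replicate 1 and 8.13 to 9.39 elsewhere. Bcl3, a partner of NF-κB proteins, had 5.85 on Flattop-negative replicate 1 and 8.56 to 9.12 elsewhere.

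In the interleukin 1, TNF and NF-κB pathway, 3 of 40 genes met the 2-fold rule on both arrays, namely Icam1, Nfkbia and Tnfaip3. Nfkbia, which encodes the inhibitor IκBα, had 9.70, 8.82 and 10.73 on the Flattop-positive arrays, against 7.27 and 10.47 on the Flattop-negative arrays. Tnfaip3, which encodes the deubiquitinase A20, had 6.03, 5.53 and 7.78, against 6.09 and 7.14. Nfkbiz, whose product IκBζ is needed for some secondary NF-κB targets, had 7.87, 6.92 and 8.56, against 6.39 and 8.90. The cytokine genes themselves were near the floor: Tnf had 3.95, 4.38 and 5.34 on the Flattop-positive arrays, against 4.38 and 5.14 on the Flattop-negative arrays, above the floor on the high arrays only. Il1b had 4.15, 4.81 and 4.12, against 5.35 and 5.20, and thus did not follow the set. The NF-κB subunit gene Rela had 8.11, 7.72 and 8.01, against 6.39 and 8.75.

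Ptgs2, the inducible cyclooxygenase gene, was highest on Flattop-negative replicate 2 (7.15, against 4.34 to 5.31 elsewhere), and Tlr3, a receptor for double-stranded RNA, was lowest there (5.69, against 6.39 to 8.42 elsewhere). Between the fractions, 0 of the 40 genes passed an adjusted p of 0.05, and at an unadjusted p under 0.05 and 1.5-fold 1 was higher and 4 were lower, against the same shares of all genes. The higher one was the kinase gene Irak1 (0.75 ± 0.19, limma adjusted p = 0.253), and those lower and above the floor on at least 2 arrays were Il1b (-0.91), the endotoxin receptor gene Cd14 (-0.94) and the NF-κB subunit gene Rel (-1.26), with limma adjusted p of 0.286 to 0.361. Il1b lay below the floor on Flattop-positive replicates 1 and 3, and Cd14 on Flattop-positive replicates 1 and 2, so the size of their differences is not exact. The median difference of the list was -0.04, and 0.03 with arrays centred on their medians.

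**Figure D4:**
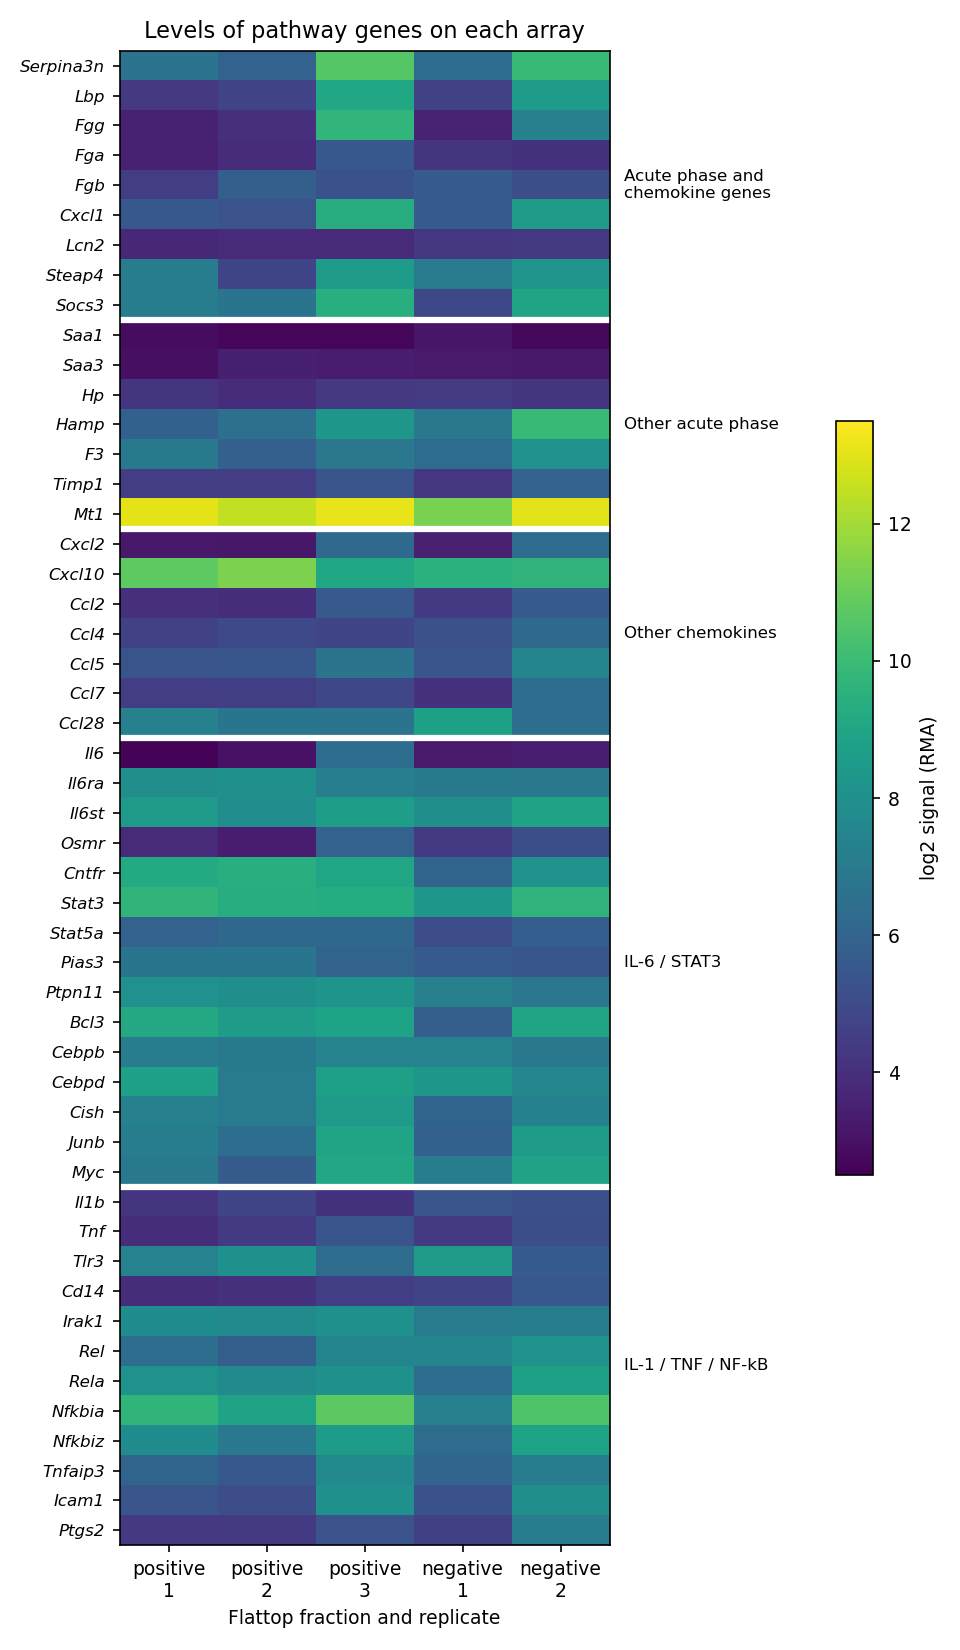
Log2 signal (colour) of the 9 genes and of named genes of the acute phase, chemokine, interleukin 6 and NF-κB lists on each array, Flattop-positive replicates at the left and Flattop-negative replicates at the right. Cxcl2, Junb, Myc, Icam1 and Tnfaip3 are brighter on Flattop-positive replicate 3 and Flattop-negative replicate 2 like Cxcl1, whereas Il6 is brighter on Flattop-positive replicate 3 alone and Saa1, Saa3 and Hp are dark throughout.

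Markers of cell types that could carry these transcripts were read on the same arrays. In such pools fewer cells of a type and less RNA per cell cannot be told apart. Of 12 measured hepatocyte markers, 8 lay at or below the floor on all 5 arrays, Alb among them (3.59 to 3.92 on the Flattop-positive arrays, against 3.96 and 4.08 on the Flattop-negative arrays), and the summed linear signal of the list was 301 to 425, against 333 and 405. Neutrophil markers were above the floor for 3, 3 and 1 of 12 genes on Flattop-positive replicates 1, 2 and 3, against 1 on each Flattop-negative array. S100a8 and S100a9 lay below the floor on all arrays, and the sum was 170 to 195, against 208 and 211. Macrophage markers were above the floor for 7, 4 and 6 of 14 genes on Flattop-positive replicates 1, 2 and 3, against 5 and 8 on Flattop-negative replicates 1 and 2. Their sums were 333 to 450 on the Flattop-positive arrays, against 323 and 1171 on Flattop-negative replicates 1 and 2. Adgre1 and Ptprc were below the floor throughout. The lysozyme gene Lyz2 had 4.09, 3.36 and 4.58 on the Flattop-positive arrays, against 3.66 and 9.41 on the Flattop-negative arrays, just above the floor on Flattop-positive replicate 3 and far above it on Flattop-negative replicate 2. Most of the macrophage sum of 1171 came from Lyz2, so that sum says little of the other macrophage markers. Among the markers above the floor on all 5 arrays, Cd68, C1qa and Csf1r had their lowest Flattop-positive value on replicate 3 (5.21, 6.02 and 4.98). Fcer1g had its highest there (5.27). All of these were higher on Flattop-negative replicate 2 than on replicate 1. They were picked once their levels were known.

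Vim, a gene of mesenchymal cells, had 5.02, 4.64 and 5.64 on the Flattop-positive arrays, against 5.02 and 8.59 on the Flattop-negative arrays. Sparc, a matrix protein gene and the only one of 12 stellate and mesenchymal markers to meet the 2-fold rule on both high arrays, had 4.40, 4.60 and 5.76, against 5.16 and 6.93. The list summed to 248 to 342 on the Flattop-positive arrays, against 305 and 885. Vim gave the largest share of the 885. The summed endothelial markers were 161 to 170, against 184 and 253. The duct marker Krt19 had 4.82, 5.57 and 4.06 on the Flattop-positive arrays, against 4.51 and 4.91 on the Flattop-negative arrays, and did not follow the set. Of 10 duct markers, 1 met the 2-fold rule on both high arrays, the mucin gene Muc1, with 4.77, 4.76 and 6.54, against 4.74 and 6.23. Sox9, a transcription factor gene of ducts, had 5.02, 5.38 and 6.18, against 5.29 and 7.23, and was also highest on both. Prom1 met the rule in the opposite direction, with 7.71, 7.96 and 5.94, against 7.93 and 5.85. Sparc, Muc1, Sox9 and Prom1 were picked once their levels were known. The duct list summed to 4676 to 7496, against 3794 and 6936. Most of this sum came from Krt8 and Krt18 on every array, so it says little of the other duct markers. The acinar list summed to 361 to 584, against 456 and 619. The α cell list summed to 12442, 12512 and 14834 on Flattop-positive replicates 1, 2 and 3, against 9695 and 17631 on Flattop-negative replicates 1 and 2. A list of minor islet cell genes, with Sst, summed to 15659, 18279 and 23856, against 4003 and 32509. The β cell list summed to 29777, 25811 and 30832, against 20418 and 20924. These sums were highest in each fraction on the high arrays, while 0 genes of these lists met the 2-fold rule. The part of macrophage, mesenchymal, duct and islet cell types in the levels on the high arrays was not tested.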

How the data were processed

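Gene expression was measured on 5 arrays, 1 per pool of sorted islet cells. The authors deposited a log2 signal for every probe set. The submitters' processing notes name RMA and, as software, Expression Console 1.3.0.187; as a method RMA includes background correction, quantile normalisation and summarisation. No genome build is given in the sources used here. Of 35556 probe sets, 21789 had 1 gene symbol; each of 19938 genes was read from its probe set of highest mean signal. Groups were compared with limma 3.58.1 (R 4.3.3), two-sided, group as the only term, with Benjamini-Hochberg adjustment over all genes, after a test on simulated data. Nothing says how the pools overlap in donors, so p-values measure the spread between these pools. Alternatives left out arrays, rescaled the arrays (quantile, median centring, cyclic loess), averaged probe sets, added an intensity trend, array weights or a replicate block, or left out dim genes; 2 were chosen after seeing the data. The genes and lists were chosen with earlier results of these data known. Named genes are the set, the 10 nearest profiles, list genes at an unadjusted p under 0.05 and 1.5-fold or among the 4 with the widest range (both above the floor on at least 2 arrays), and a fixed set; exceptions are marked. The fixed set also held Il1r1 and Nfkb1, which were not analysed here. Upstream sequences are from RefSeq (GRCm38.p6). Tables were handled in pandas 2.3.3.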

Additional observations from a re-analysis of the deposited data

How the results depend on the processing

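No gene of the set passed an adjusted p of 0.05 in any of the 108 differences computed under the alternatives. These differences do not cover the intensity trend, the array weights or the omission of dim genes. Leaving out single arrays moved the differences over -2.15 to 1.32 for Serpina3n, -2.51 to 1.38 for Lbp, -1.65 to 2.22 for Fgg, -0.41 to 0.59 for Fga, -0.49 to 0.17 for Fgb, -1.79 to 1.09 for Cxcl1, -0.60 to -0.45 for Lcn2, -1.65 to 0.21 for Steap4 and -1.18 to 2.88 for Socs3. List medians ran from -1.65 to 1.09 (the set), -0.42 to -0.08 (other acute phase), -0.47 to -0.09 (chemokines), -0.18 to 0.36 (interleukin 6 and STAT3), -0.38 to 0.13 (NF-κB) and -1.44 to 1.17 (immediate early). Genes at an adjusted p under 0.05 numbered 0 to 434, and at the unadjusted threshold and 1.5-fold 930 to 2520 were higher and 268 to 2202 lower; the 434 came without Flattop-negative replicate 2, where a single Flattop-negative array was taken to vary as the others do. Against 1610 higher and 746 lower genes in all arrays, the count of higher genes was 905 after quantile normalisation and 766 after cyclic loess, and that of lower genes was 450 with arrays centred, 416 with array weights and 249 with dim genes left out, where fewer genes were tested. Higher and lower genes thus numbered 1903 and 450 with arrays centred and 766 and 605 after cyclic loess. The labels do not say that replicate numbers mark shared donors. Deviations of same-numbered arrays correlated at 0.18 and -0.14, and those of Flattop-positive replicate 3 and Flattop-negative replicate 2 at 0.22. With 2 Flattop-negative arrays their deviations mirror each other, so these values cannot decide whether donors were shared. With the replicate block 384 genes were lower. Fgg and Fga then reversed to -1.65 and -0.41, values that rest on signals below the floor and give no reliable direction. Chosen after seeing the data, a block for the arrays with Xist above the floor turned Serpina3n, Lbp and Cxcl1 to 0.24, 0.14 and 0.23. Without Flattop-positive replicate 3 and Flattop-negative replicate 2 together, 2987 genes were higher and 2377 lower, Fga had -0.43, again from signals below the floor, and the interleukin 6 and STAT3 median was -0.16. The cause of these shifts was not tested. The count of 6 genes at least 2-fold higher on both arrays held after quantile normalisation, centring and cyclic loess and with probe sets averaged, while 6 of the 10 nearest profiles were shared after quantile normalisation and after cyclic loess.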

Other observations

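Reg3b, a secreted C-type lectin of the pancreas and gut that is also known as pancreatitis-associated protein and is induced through STAT3, had 3.16, 4.06 and 9.22 on Flattop-positive replicates 1, 2 and 3, against 4.20 and 7.14 on Flattop-negative replicates 1 and 2. It lay above the floor on the high arrays only, and its neighbours in name Reg3a, Reg3d and Reg3g lay below the floor on all 5 arrays. Tac1, the precursor gene of substance P, had 3.95, 3.46 and 9.55 on the Flattop-positive arrays, against 4.83 and 10.62 on the Flattop-negative arrays. Fgl2, a fibrinogen-like protein gene, had 7.12, 6.97 and 8.14, against 7.35 and 8.47. None of these genes was chosen before its values were seen, and none had a limma adjusted p under 0.05 between the fractions (0.972 for Reg3b, 0.698 for Tac1 and 0.640 for Fgl2).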
